A study of Mus musculus with 16 samples.

Results

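The enzymes and carrier that make nitric oxide, handle arginine and make itaconate were followed in mouse pulmonary endothelial cells (ECs). They were chosen by gene symbol and comprise 10 genes of the 54532 genes in each of the 2 deposited expression tables. The 8 members described are Nos3, Nos2, Gch1, Ddah1, Ddah2, Acod1, Ass1 and Slc7a2, and every count of members below is over these 8. In the first experiment, male WT C57/BL6J mice of 8 weeks received saline (n = 4) or 10 mg/kg LPS (n = 6) into the trachea. LPS is the lipopolysaccharide that coats Gram-negative bacteria, and the model is one of acute lung injury. In the second, Fgfr1loxp/loxp mice (n = 3) and Fgfr1iΔEC/iΔEC mice (n = 3) were all given tamoxifen and 2 mg/kg LPS, so this experiment has no group without LPS. Fgfr1iΔEC/iΔEC mice carry the floxed Fgfr1 alleles and a tamoxifen-inducible Cre under the VE-cadherin promoter, which acts in ECs of all vessels and not in those of the lung alone. Lungs were taken after 24 h, digested, depleted of cells carrying CD45 and enriched on magnetic beads for cells carrying CD31. RNA was sequenced in bulk, and the libraries held 13478726 to 19043015 reads on genes. In bulk RNA, fewer cells of a type and less RNA per cell cannot be told apart.

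Nitric oxide synthases convert arginine to nitric oxide and citrulline. Nos3 is the constitutive endothelial enzyme and Nos2 the inducible one, known best from activated macrophages. Both need tetrahydrobiopterin, whose synthesis is limited by Gch1, and both are inhibited by methylated arginines, which Ddah1 and Ddah2 degrade. Slc7a2 carries arginine into the cell, and Ass1, with Asl, regenerates it from citrulline. Acod1 makes itaconate from cis-aconitate of the citric acid cycle and is known as one of the genes most strongly induced by LPS in macrophages.

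On GRCm38, Acod1 lies on chromosome 14 (103046977 to 103056573, plus strand) and Gch1 on the same chromosome (47153895 to 47189413, minus strand). Ddah2 lies on chromosome 17 (35059035 to 35062095, plus strand). RefSeq promoter sequences (GRCm38.p6) were at hand for 5 of the 8 members, and 3 are shown as examples of a gene read at very low levels in most saline libraries (Acod1), a gene read in all of them that rose with LPS (Gch1) and a gene read at high levels throughout (Ddah2). Each line gives the sense strand of the gene, ending at or just before the RefSeq transcription start, which for Acod1 lies inside the gene span of the deposited table given above, and capitals mark matches to the searched motifs.
Acod1, chr14:103046892-103046996, plus strand: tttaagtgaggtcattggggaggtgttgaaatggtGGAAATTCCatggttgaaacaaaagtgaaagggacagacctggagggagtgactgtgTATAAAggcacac
Gch1, chr14:47189414-47189533, minus strand: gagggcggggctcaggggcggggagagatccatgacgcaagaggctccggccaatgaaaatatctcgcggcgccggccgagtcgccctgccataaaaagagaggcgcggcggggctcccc
Ddah2, chr17:35058915-35059034, plus strand: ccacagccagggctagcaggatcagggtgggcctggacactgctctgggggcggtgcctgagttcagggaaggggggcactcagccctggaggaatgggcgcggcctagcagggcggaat
The motifs were the TATA box TATAAA and the letters GGAANTTCC and GGGNNTTCC of κB sites and GAAANNGAA of interferon response elements. All were searched on both strands in the 250 bases before and the 50 bases after the start. They were chosen after the sequences had been seen, and GGAANTTCC and GGGNNTTCC can overlap in 1 sequence. Acod1 held TATAAA at bases -28 to -23 and GGAAATTCC at -85 to -77, counted back from -1 at the base before the RefSeq start. Of the 32851 promoters in the table, 13.6% held TATAAA, 0.928% held GGAANTTCC, 5.82% held GGGNNTTCC and 8.56% held GAAANNGAA. In Gch1, TATAAA was matched on the opposite strand at -188 to -183, outside the stretch printed, and the other 3 promoters held none of these letters. GC content of the 250 bases before the start was 44.4% for Acod1, against 59.2% for Gch1 and 58.0% for Ddah2. A match is a string of letters and not a measured site.

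The content of the bead-isolated fraction bears on every value below, so it is given first. All 10 endothelial markers were at 1 FPKM or more in every library, FPKM being fragment numbers corrected for transcript length and library size. Their summed level was 5650, 3197, 3839 and 3300 FPKM in saline replicates 1 to 4 and 1370, 3193, 2068, 3222, 2460 and 3007 FPKM in LPS replicates 1 to 6. Saline 1 was thus the highest and LPS 1 the lowest, with Cldn5 the most abundant gene of the list in both groups, and 4 of the 10 genes were lower in LPS by the criteria given below.

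Markers of white cells were also read, although cells carrying CD45 had been depleted. The 6 leukocyte genes summed to 353, 161, 95.7 and 139 FPKM in the saline libraries and to 2480, 2486, 1616, 1788, 1967 and 1026 FPKM in the LPS libraries. All 6 were higher in LPS, Tyrobp the most abundant at 57.3 FPKM in saline and 852 in LPS. The 8 macrophage genes summed to 52.7, 42.6, 51.8 and 45.8 FPKM in saline and 768, 537, 541, 509, 643 and 356 FPKM in LPS, and 5 of them were higher. Csf1r, the receptor of the macrophage growth factor, was the most abundant of that list in LPS, at 7.13 FPKM in saline and 211 FPKM in LPS, and Mertk the most abundant in saline, at 24.9 and 23.5 FPKM. The 5 monocyte genes summed to 139, 23.5, 17.5 and 25.2 FPKM in saline and 904, 947, 464, 526, 483 and 292 FPKM in LPS, all 5 being higher, with Cd14 the most abundant. The 8 neutrophil genes summed to 1401, 74.1, 311 and 78.2 FPKM in saline and 2726, 6653, 1610, 3440, 2488 and 1290 FPKM in LPS. Of these, 6 were higher and S100a9 was the most abundant. Of other cells, 3 of 5 tested lymphocyte genes and 2 of 9 epithelial genes were lower, 1 epithelial gene and 3 of 4 erythroid genes were higher, and 0 of 6 fibroblast genes were called. The markers listed at 0 were Ly6g in saline 4, Marco in saline 1 and Lum, a fibroblast gene, in saline 3. Saline 1 stood apart from the other saline libraries in neutrophil, monocyte and leukocyte markers as well as in endothelial ones, so the counts that it moves are given with and without it. Without saline 1, 3 endothelial genes were lower (Kdr, Tek and Tie1), all 8 neutrophil genes were higher, and 1 lymphocyte gene, 1 epithelial gene (Sftpc) and 1 fibroblast gene (Tcf21) were lower. The counts of the leukocyte, macrophage, monocyte and erythroid lists were the same without it. The part of these cells in the changes of the members was not tested.

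**Figure D1:**
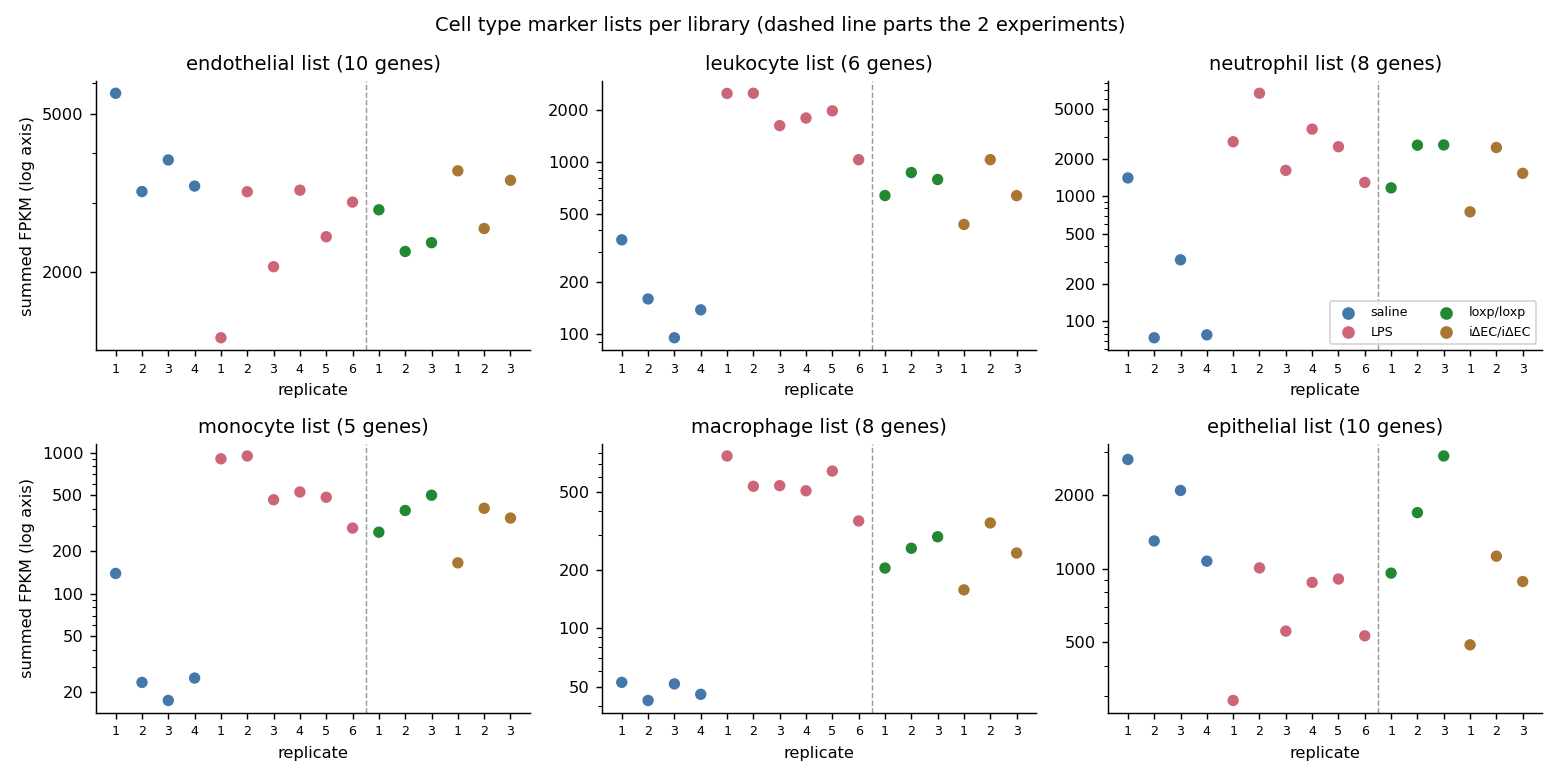
Summed FPKM (log axis) of 6 cell type marker lists in each library, with points coloured by group and the replicate number on the horizontal axis. All LPS libraries of the first experiment lie above all saline libraries in the leukocyte, monocyte and macrophage lists, while saline 1 is the highest saline library in the neutrophil list at 1401 FPKM.

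After 10 mg/kg LPS, Acod1, Ass1, Slc7a2 and Gch1 were higher than after saline, while the synthases themselves did not pass the limits of the call. A gene was called where its limma adjusted p over all 14893 genes tested was at most 0.05 and its log2 fold change reached 1 in either direction. Fold changes are on the log2(FPKM + 1) scale, which understates the change of genes with low levels. All 8 members were tested. Of these, 4 were called higher, beside 11.9% of all genes tested, and 0 were called lower, beside 6.79%. In these 4 members (Gch1, Acod1, Ass1 and Slc7a2) every LPS library lay above every saline library, as in 22.7% of all genes. In 0 members did every LPS library lie below, as against 16.7% of all genes. The members were not drawn at random, so these shares stand side by side as a description.

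**Figure D2:**
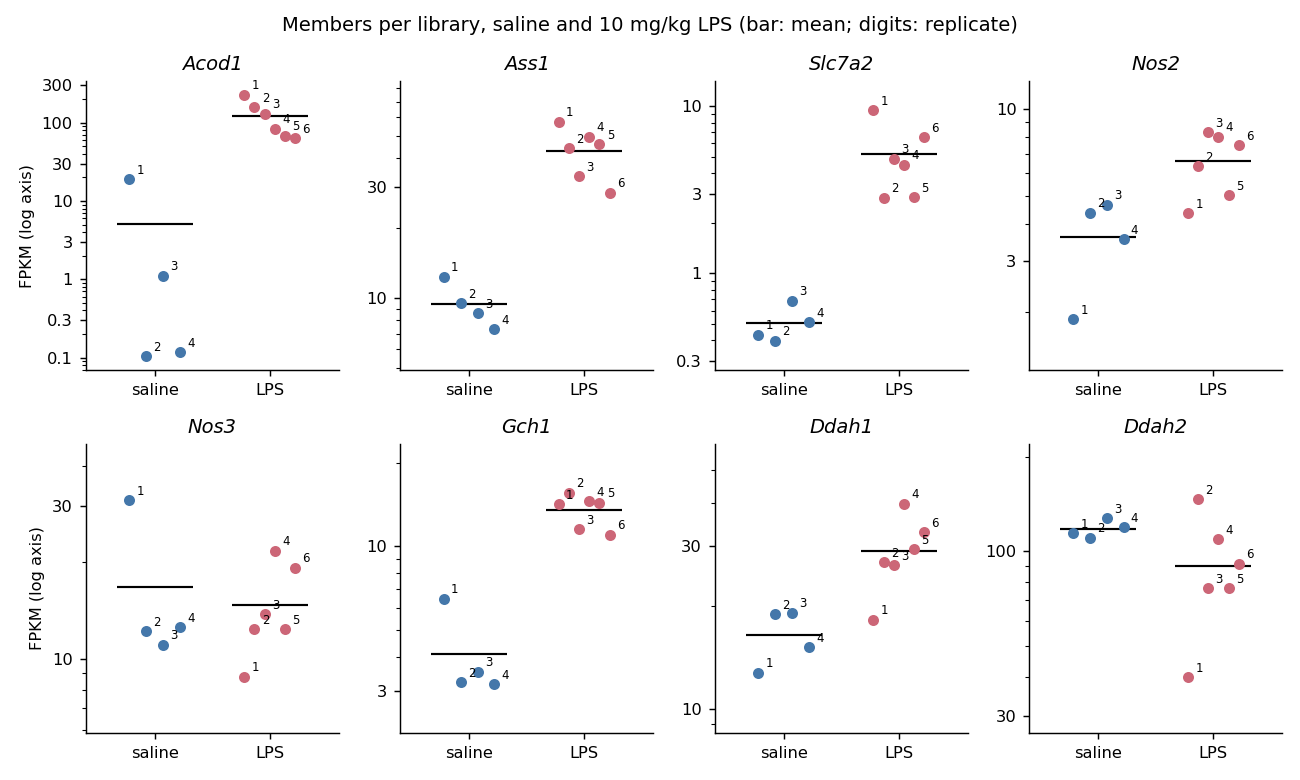
FPKM (log axis) of the 8 members in each saline (n = 4) and LPS (n = 6) library, with the replicate number beside each point and a bar at the group mean. The groups lie apart for Acod1, Ass1, Slc7a2 and Gch1, and saline 1 lies above the other saline libraries for Acod1, Ass1, Nos3 and Gch1.

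Acod1 had the largest fold change on the fitted scale among the members. It stood at 19.0, 0.103, 1.11 and 0.116 FPKM in the saline libraries, and the LPS libraries ranged from 63.7 through a median of 106.9 to 227 FPKM. The groups did not overlap, although the saline libraries differed among themselves, relative to their level, far more than the LPS libraries did. Saline 1, with 658 reads on Acod1 against 6 in each of saline 2 and 4, where 3 reads were taken as the floor, is also the saline library with the most neutrophil and monocyte marker RNA. The mean was 5.07 ± 9.27 FPKM in saline (SD, n = 4) and 121.7 ± 63.5 FPKM in LPS (SD, n = 6), with a log2 fold change of 5.36 (SE 0.74) and a limma adjusted p of 0.000159. Without saline 1 the log2 fold change was 6.33. On the read numbers recovered from the FPKM, with limma-voom in place of a pseudocount of 1 FPKM, it was 7.57.

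The enzyme and carrier that supply arginine both rose. Ass1, which joins citrulline to aspartate, stood at 12.3, 9.51, 8.58 and 7.32 FPKM in saline and ranged from 28.4 through a median of 45.1 to 57.4 FPKM in LPS. The groups were well apart and each was narrow, with a log2 fold change of 2.06 (SE 0.20) and a limma adjusted p of 1.66e-05. Slc7a2, the cationic amino acid transporter, stood at 0.430, 0.396, 0.687 and 0.512 FPKM in saline and ranged from 2.83 through a median of 4.66 to 9.45 FPKM in LPS. It was the least abundant member in LPS, yet its mean rose 10.2-fold. The log2 fold change was 1.95 (SE 0.26, limma adjusted p = 0.000132), and 3.25 on the recovered reads. Slc7a2 overlaps Gm26584, a long non-coding RNA gene on the opposite strand, and the strandedness of the libraries is not given in the sources used here, so reads of the overlap cannot be told apart.

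Neither synthase was called. Nos2 stood at 1.89, 4.39, 4.68 and 3.56 FPKM in saline and ranged from 4.37 through a median of 6.91 to 8.32 FPKM in LPS. The groups overlapped because LPS 1 lay just under saline 2 and 3. With a log2 fold change of 0.73 (SE 0.22) it passed the limit on the limma adjusted p (0.0156) but not that on the fold change, so it was not called. Its test depended on the scale. With scaling on total FPKM Nos2 stood at 0.44 on the log2 scale and missed both limits (limma adjusted p = 0.199), where the median of all genes was -0.25, and with scaling on endothelial markers it was 1.39 and called, where that median was 0.65.

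Nos3 was not called, and its direction depended on single libraries. It stood at 31.3, 12.2, 11.1 and 12.5 FPKM in saline and ranged from 8.80 through a median of 13.1 to 21.8 FPKM in LPS. Saline 1 lay above all 9 other libraries, and the remaining saline libraries lay inside the range of the LPS libraries. The log2 fold change was -0.10 (SE 0.30, limma adjusted p = 0.788) with all libraries, 0.23 without saline 1 and 0.025 without LPS 1. Among the LPS libraries Nos3 was lowest in LPS 1 and highest in LPS 4, which were also the libraries with the lowest and the highest sum of endothelial markers. The order did not hold between them, since LPS 2, with a sum of 3193 FPKM, held Nos3 at 12.37 FPKM. LPS 3, with a sum of 2068 FPKM, held it at 13.75 FPKM. When libraries were scaled on the endothelial list instead, the log2 fold change of Nos3 was 0.67 (limma adjusted p = 0.0438), but under this scaling the median of all genes tested moved to 0.65, from 0.01. Nos3 shares its span with Atg9b and an antisense gene on the opposite strand, so the same limit holds.

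Gch1, which sets the supply of tetrahydrobiopterin, rose in every LPS library. Saline held 6.48, 3.24, 3.53 and 3.19 FPKM, and LPS ranged from 11.0 through a median of 14.3 to 15.7 FPKM. Relative to the mean, the LPS libraries were more alike than for any other member, with an SD of 1.85 FPKM on a mean of 13.6 FPKM. The log2 fold change was 1.55 (SE 0.18, limma adjusted p = 4.38e-05). Gch1 overlaps the processed pseudogenes Gm18811, on the same strand, and Gm49134, on the opposite strand.

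Neither dimethylarginine hydrolase was called in the main comparison. Ddah1 stood at 12.8, 19.0, 19.1 and 15.2 FPKM in saline and ranged from 18.3 through a median of 28.2 to 39.9 FPKM in LPS. LPS 1 alone fell among the saline libraries, and the log2 fold change was 0.76 (SE 0.20, limma adjusted p = 0.0075), or 1.54 and called when scaled on the endothelial list. It no longer passed the limit on the limma adjusted p with scaling on total FPKM (0.43, adjusted p = 0.155) or with quantile normalization (0.42, adjusted p = 0.0981). Ddah1 overlaps the processed pseudogene Rpl36a-ps2 on the same strand. Ddah2, the most abundant member in saline, stood at 114.1, 110.6, 127.6 and 119.4 FPKM there and ranged from 39.8 through a median of 84.0 to 146.4 FPKM in LPS. LPS 2 lay above all saline libraries and the other 5 LPS libraries below them, so the spread in LPS was wide, with a log2 fold change of -0.49 (SE 0.29, limma adjusted p = 0.17), or -0.27 without LPS 1. With quantile normalization Ddah2 was called lower (-1.12). With scaling on total FPKM it passed the limit on the limma adjusted p and not that on the fold (-0.83, adjusted p = 0.0203), and with scaling on the endothelial list its log2 fold change was 0.34, against a median of 0.65 over all genes.

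**Figure D3:**
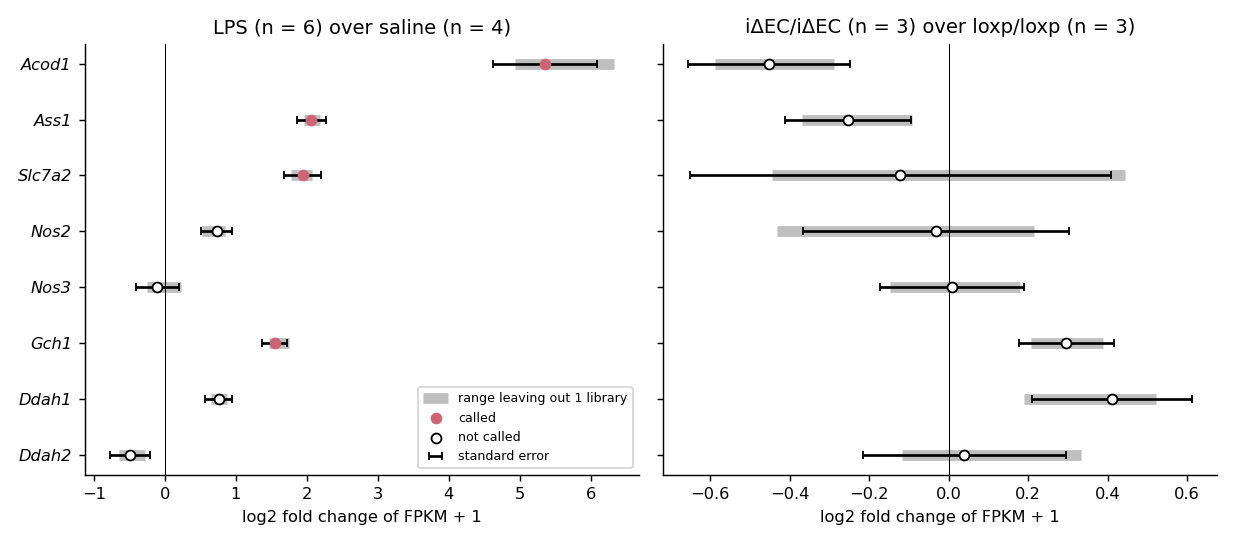
Log2 fold change of FPKM + 1 of the 8 members in LPS over saline (left) and Fgfr1iΔEC/iΔEC over Fgfr1loxp/loxp (right), with different horizontal scales, black bars for the standard error, grey bars for the range when 1 library is left out, and filled points for called genes. On the left 4 members are called, from 1.55 for Gch1 to 5.36 for Acod1, and on the right 0 are called.

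The order of the members by level changed with LPS. In saline the means ran from Ddah2 (117.9 FPKM) through Nos3 (16.8), Ddah1 (16.5), Ass1 (9.44), Acod1 (5.07), Gch1 (4.11) and Nos2 (3.63) to Slc7a2 (0.506). Neighbours whose ranges did not overlap were Ddah2 and Nos3, Ddah1 and Ass1, and Nos2 and Slc7a2. Several places in the saline order rested on saline 1. Without it the mean of Acod1 was 0.443 FPKM, the lowest and below Slc7a2 (0.531), that of Nos3 was 11.9 FPKM, below Ddah1 (17.7), and that of Gch1 was 3.32 FPKM, below Nos2 (4.21). In LPS the means ran from Acod1 (121.7 FPKM) through Ddah2 (90.0), Ass1 (43.1), Ddah1 (29.0), Nos3 (14.7), Gch1 (13.6) and Nos2 (6.60) to Slc7a2 (5.17). Here the only neighbours with separate ranges were Gch1 and Nos2, so most of that order is not resolved.

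For 3 members the genes with the most similar pattern over the 10 saline and LPS libraries were sought, by the mean absolute difference of log2(FPKM + 1) after centring each gene on its own mean. Nearest to Acod1 were Hcar2 (0.37), Cd14 (0.39), the LPS co-receptor that is also in the monocyte list, and Clec4d (0.42), a C-type lectin of myeloid cells. Nearest to Nos3 were the transcriptional cofactor Zfpm1 (0.11), the Notch ligand Jag2 (0.15) and 1700037H04Rik (0.16). Nearest to Nos2 were Idi1 (0.17), of sterol synthesis, the lipid flippase Atp8b1 (0.17) and the interferon-induced kinase Eif2ak2 (0.18). Genes with small changes lie near many others, so a small difference for Nos3 or Nos2 weighs less than for Acod1.

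In the wider pathways, most calls in arginine and polyamine metabolism were higher. Of its 18 listed genes 14 were tested, 7 were higher and 1 was lower, beside 11.9% higher and 6.79% lower over all genes, with a median log2 fold change of 0.83 beside 0.01. The higher ones included Asl, the partner of Ass1, at 2.78 ± 0.40 FPKM in saline (SD, n = 4) and 6.98 ± 1.55 FPKM in LPS (SD, n = 6). Odc1, which turns ornithine into putrescine, went from 13.1 ± 4.8 to 31.3 ± 10.3 FPKM. Srm, the spermidine synthase, went from 8.35 ± 0.78 to 30.5 ± 7.8 FPKM, and Amd1, which makes its aminopropyl donor, from 10.1 ± 3.0 to 25.5 ± 5.2 FPKM. Sat1, which acetylates and thereby removes polyamines, also rose, from 86.4 ± 35.1 to 174 ± 32 FPKM, so genes of both the making and the breakdown of polyamines are among the 7. The others were Gatm, the first enzyme of creatine synthesis, and Aldh18a1, of proline synthesis. Gatm stood at 0.275 ± 0.280 FPKM in saline, with as few as 2 reads, and at 4.98 ± 1.45 FPKM in LPS. Its saline mean lay under the filter of 0.5 FPKM, so it was tested only through its LPS level and no exact fold is given. Aldh18a1 had a log2 fold change of 2.08 (SE 0.15, limma adjusted p = 2.49e-06). Prodh, which degrades proline, fell by 1.27 on the log2 scale (SE 0.11, limma adjusted p = 8.68e-06). Without saline 1, 7 were again higher and 1 lower.

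On the receptor side of nitric oxide signalling most called genes were lower. Of 8 genes in the list of the nitric oxide receptor and cGMP signalling 6 were tested. Of these, 1 was higher and 4 were lower, beside 11.9% higher and 6.79% lower over all genes. The median log2 fold change was -1.29, beside 0.01. Lower were both subunits of the soluble guanylate cyclase, which senses nitric oxide, with Gucy1a1 at 14.3 ± 4.5 FPKM in saline (SD, n = 4) and 3.11 ± 1.40 FPKM in LPS (SD, n = 6), and Gucy1b1 at 20.2 ± 6.6 and 6.73 ± 2.77 FPKM. The cGMP-dependent kinase Prkg1 fell from 1.87 ± 0.73 to 0.305 ± 0.124 FPKM and the cGMP phosphodiesterase Pde5a from 11.0 ± 2.8 to 2.41 ± 1.18 FPKM. Prkg1 lay under the filter of 0.5 FPKM in LPS and was tested only through its saline level. Vasp, a substrate of that kinase and an actin regulator found in many cells, was called higher, at 48.3 ± 6.7 and 267 ± 58 FPKM. Several genes of this list are known from mural cells, whose 7 markers summed to 125.3, 51.8, 27.4 and 45.9 FPKM in saline and 36.7, 70.7, 36.4, 62.4, 60.6 and 63.7 FPKM in LPS, with Acta2 the most abundant and 1 of 7, Pdgfrb, called lower. Without saline 1, 0 of them were lower and 1, Acta2, was higher. The groups overlapped in the mural sum. The median log2 fold change was -0.23 for the 7 mural markers and -0.83 for the 10 endothelial markers. The part of either cell type in the falls was not tested. Without saline 1, Prkg1 was no longer called and 3 genes were lower.

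The list of further synthases and their regulators held 11 genes, among them Nos1, the neuronal synthase, which was too low to be tested. Of the other 10, 1 was higher and 1 was lower, near the 11.9% and 6.79% over all genes. The median was 0.44, beside 0.01. The chaperone Hsp90aa1 went from 26.8 ± 15.7 to 72.0 ± 11.0 FPKM. Cav1, the caveolar protein that binds and restrains Nos3, fell from 656 ± 70 to 266 ± 68 FPKM, by 1.34 on the log2 scale (SE 0.24, limma adjusted p = 0.000749).

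The 6 other genes of tetrahydrobiopterin synthesis and recycling gave 0 calls, beside 11.9% of all genes called higher and 6.79% lower. Their median log2 fold change was -0.01, and 1 of them, higher, passed the limit on the adjusted p alone. With no fold limit, 29.5% of all genes passed it in the higher direction and 23.7% in the lower. Qdpr, which recycles the cofactor and was the most abundant, stood at 16.6 ± 2.9 FPKM in saline and 17.6 ± 4.4 FPKM in LPS. The other arginine carriers (5 of 7 tested, median 0.55) gave 0 calls too. Among the 5, 3 passed the limit on the adjusted p alone, all higher, beside the same 29.5%. Slc3a2, a shared heavy chain, stood at 155.1 ± 41.0 and 214 ± 40 FPKM. The protein arginine methyltransferases, whose products are the source of dimethylarginines, gave 0 calls among 7 tested (median 0.31). Of these 7, 3 passed the limit on the adjusted p alone, all higher, beside the same 29.5% of all genes. Agxt2, an aminotransferase in the same list, was too low to be tested. Prmt1 stood at 16.5 ± 1.6 and 33.2 ± 7.7 FPKM with a log2 fold change of 0.94. Around itaconate and the citric acid cycle, 17 of 18 genes were tested. Only Idh1, the cytosolic isocitrate dehydrogenase, was called higher, beside 11.9% of all genes. It went from 10.9 ± 1.6 to 28.5 ± 5.6 FPKM. Without saline 1, Sdhd, a subunit of succinate dehydrogenase, was called as well. All 17 had a log2 fold change above 0 (median 0.39), and 11 of them passed the limit on the adjusted p alone, as did 29.5% of all genes in that direction. The median of all genes was 0.65 under scaling on the endothelial list and -0.25 under scaling on total FPKM. The medians of these lists were taken under the main scaling only.

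**Figure D4:**
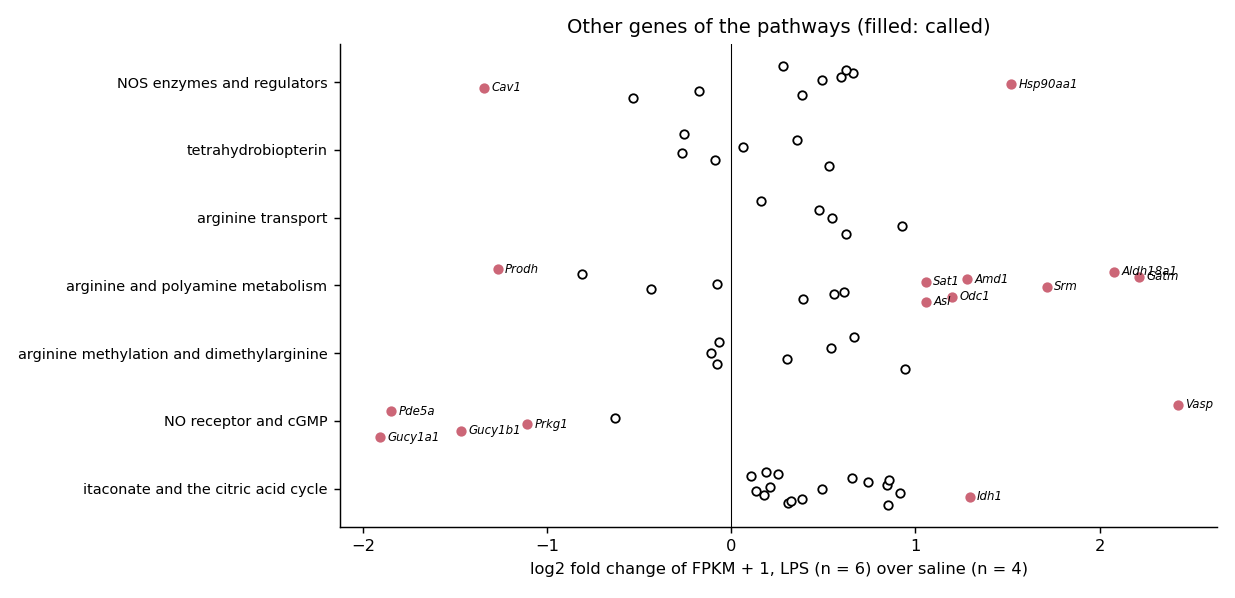
Log2 fold change of FPKM + 1 in LPS (n = 6) over saline (n = 4) for the tested genes of 7 pathway lists, 1 row per list, with filled and named points for called genes. Called genes lie on the right for arginine and polyamine metabolism except Prodh, and on the left for the receptor and cGMP list except Vasp.

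The second experiment asks whether loss of endothelial Fgfr1 changes these genes under 2 mg/kg LPS. Fgfr1 itself stood at 2.90, 2.91 and 2.59 FPKM in Fgfr1loxp/loxp mice and 0.683, 1.41 and 1.15 FPKM in Fgfr1iΔEC/iΔEC mice. The groups did not overlap and lay in the direction of the labels, although reads were counted over the whole gene and not over the deleted part alone. The log2 fold change was -0.89 (SE 0.16, exact permutation p = 0.1, the smallest that 3 against 3 allows), with a limma adjusted p of 0.962 over the 14944 genes tested. In the first experiment Fgfr1 was also lower in LPS, with means of 3.61 ± 1.28 FPKM in saline and 1.81 ± 0.59 FPKM in LPS (log2 fold change -0.70, limma adjusted p = 0.0113), and did not reach the fold limit.

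With limma, 0 of all genes were called higher (0.0%) and 0 lower (0.0%), and the smallest adjusted p was 0.742. An unadjusted p under 0.05 was found for 661 genes, and limma-voom on the recovered reads called 0 genes as well. So 0 of the 8 members were called, and their adjusted p ran from 0.962 to 0.999. With the replicate number as a block, since same-numbered libraries deviated together, 0 were called and the members' adjusted p ran from 0.608 to 0.996.

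**Figure D5:**
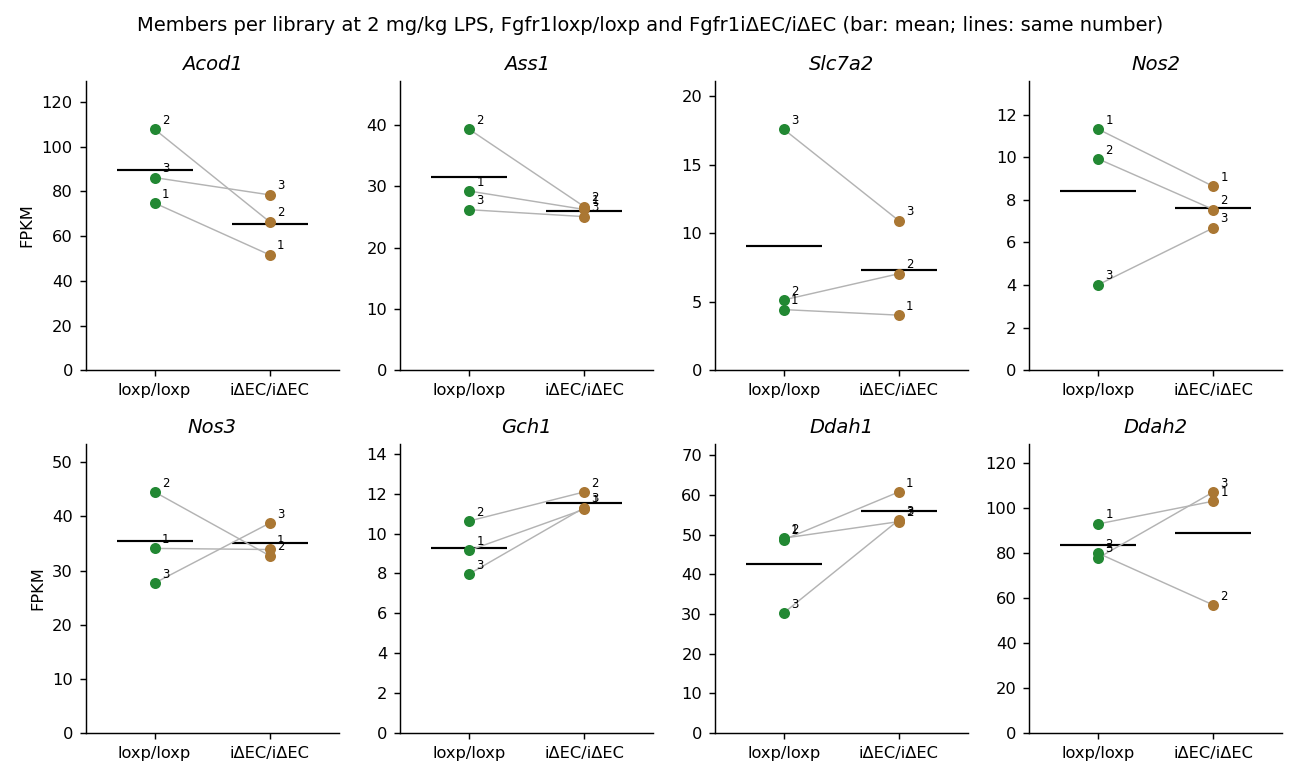
FPKM of the 8 members in Fgfr1loxp/loxp (n = 3) and Fgfr1iΔEC/iΔEC (n = 3) libraries after 2 mg/kg LPS, with bars at the group means and grey lines between libraries of the same number. The groups lie apart for Gch1 and Ddah1, which are higher in all 3 Fgfr1iΔEC/iΔEC libraries, and overlap for the other 6 members.

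Only for Gch1 and Ddah1 did the groups of the second experiment not overlap, both with Fgfr1iΔEC/iΔEC mice higher. Such a pattern was found in 6.02% of all genes in that direction and in 4.08% in the other, in which 0 members lay. Gch1 stood at 9.16, 10.6 and 7.97 FPKM in Fgfr1loxp/loxp mice and 11.2, 12.1 and 11.3 FPKM in Fgfr1iΔEC/iΔEC mice, with a log2 fold change of 0.30 (SE 0.12, exact permutation p = 0.1). Ddah1 stood at 48.7, 49.1 and 30.2 FPKM and 60.7, 53.3 and 53.7 FPKM, with a log2 fold change of 0.41 (SE 0.20, exact permutation p = 0.1). The separation was narrow for both genes, and for Ddah1 the control library 3 was far below the other 2. Without that library the log2 fold change of Ddah1 was 0.19. With scaling on the endothelial list it was 0.12 for Ddah1 and 0.025 for Gch1, where the median of all genes was -0.22.

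Acod1 and Ass1 were lower in the Fgfr1iΔEC/iΔEC library of all 3 pairs, but the groups overlapped. Acod1 stood at 74.8, 107.8 and 86.2 FPKM in Fgfr1loxp/loxp mice and 51.6, 66.4 and 78.4 FPKM in Fgfr1iΔEC/iΔEC mice (log2 fold change -0.45, SE 0.20, exact permutation p = 0.2, or -0.29 without Fgfr1iΔEC/iΔEC 1). Ass1 stood at 29.3, 39.4 and 26.2 FPKM and at 26.3, 26.7 and 25.1 FPKM (log2 fold change -0.25, SE 0.16, exact permutation p = 0.2). The Fgfr1iΔEC/iΔEC libraries of Ass1 were nearly equal, and the spread was in the controls, the log2 fold change being -0.09 without Fgfr1loxp/loxp 2. With scaling on the endothelial list the log2 fold change was -0.75 for Acod1 and -0.54 for Ass1, where the median of all genes was -0.22.

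The other members showed no common direction. Slc7a2 was high in a single control, at 4.42, 5.13 and 17.6 FPKM in Fgfr1loxp/loxp mice beside 4.02, 7.04 and 10.9 FPKM in Fgfr1iΔEC/iΔEC mice, and its log2 fold change of -0.12 (SE 0.53) was 0.44 without that control and 0.20 without Fgfr1iΔEC/iΔEC 1. Nos2 stood at 11.3, 9.92 and 4.02 FPKM and at 8.63, 7.55 and 6.69 FPKM, with a log2 fold change of -0.03 (SE 0.34). Nos3 had equal means within their error, 35.4 ± 8.5 and 35.1 ± 3.2 FPKM (SD, n = 3 each), and so did Ddah2, with 83.5 ± 8.2 and 89.0 ± 27.9 FPKM. These means do not show that the groups are alike, since the SE of the log2 difference was 0.18 for Nos3 and 0.26 for Ddah2.

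Marker levels varied between these libraries too. The leukocyte list summed to 636, 865 and 788 FPKM in Fgfr1loxp/loxp mice and 433, 1027 and 636 FPKM in Fgfr1iΔEC/iΔEC mice, and the macrophage list to 204, 258 and 295 FPKM and 158, 348 and 244 FPKM. The monocyte list summed to 273, 389 and 499 FPKM and 166, 403 and 344 FPKM, and the neutrophil list to 1167, 2559 and 2571 FPKM and 751, 2453 and 1525 FPKM. Fgfr1iΔEC/iΔEC 1, the library lowest in Acod1 and Slc7a2, was also the lowest in each of these lists. The endothelial list summed to 2876, 2259 and 2377 FPKM and 3605, 2580 and 3412 FPKM. Fgfr1loxp/loxp 3 was the library highest in Slc7a2 and lowest in Nos2, Nos3, Gch1 and Ddah1. It had the highest sum of the 10 epithelial markers, 2902 FPKM against 488 to 1700 FPKM in the other 5. It also had the highest neutrophil (2571 FPKM), monocyte (499 FPKM) and mural (139 FPKM) sums. The epithelial list summed to 960, 1700 and 2902 FPKM in Fgfr1loxp/loxp mice and 488, 1127 and 887 FPKM in Fgfr1iΔEC/iΔEC mice (median log2 fold change -0.66). In every same-numbered pair the epithelial, neutrophil and mural sums were lower in Fgfr1iΔEC/iΔEC mice and the endothelial sum was higher. The leukocyte, macrophage and monocyte sums went both ways. None of the markers in these lists was listed at 0 in the second experiment, and 0 of them were called. Their part in the values of the members was not tested. In the 7 pathway lists 0 genes were called as well, with medians from -0.09 for arginine and polyamine metabolism to 0.11 for arginine transport, beside 0.01 over all genes.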

How the data were processed

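Groups follow the sample labels, and no label says more of how replicates were made, so p-values measure only the spread between these samples, which may be technical in part. The authors aligned reads to GRCm38 with HISAT2 2.0.5, counted them on genes with featureCounts 1.5.0-p3 and deposited FPKM with gene lengths in bases, 1 table per experiment. The annotation release and the strandedness are not given in the sources used here. Of the gene identifiers, 54409 were in GENCODE M21 and 98.3% had the same start and end there. FPKM times length gave whole reads for 100% of the values (tolerance 0.05 reads), which gives the depth of each library. Reads are not independent molecules, and 3 reads were taken as the floor.

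FPKM was scaled by median-of-ratios factors within each table, log2-transformed with a pseudocount of 1, and tested for genes averaging 0.5 FPKM or more with limma 3.58.1 in R 4.3.3 (lmFit, eBayes with trend), with Benjamini-Hochberg adjustment over all genes. For single values in the second experiment a two-sided exact permutation test was run. Levels are the deposited FPKM. The median-of-ratios factors differed from 1 by at most 3.22e-13% in the first experiment and 0.182% in the second. The scaling therefore changed almost nothing, and the fit on FPKM as deposited, among the alternatives, is close to the main fit by construction. Differences across tables were not tested, since the tables were scaled separately. No library was a copy of another, the mean chi-square between replicates being at least 7.28. In the second experiment same-numbered libraries deviated together in all 3 pairs (r across genes 0.178 to 0.248, other pairs -0.14 to -0.041), so the replicate number was used as a block in an alternative fit, and this pairing comes from the data. The code was tested on simulated data.

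The text names 8 of the 10 members, Fgfr1, every called gene of the pathway lists (or the most abundant where none was called), the most abundant marker of a list and the 3 genes nearest in pattern to Nos3, Nos2 and Acod1. The remaining members and 1 gene of a pathway list are not reported here. The members and lists were chosen with earlier results of these data known. Tables were handled in Python 3.11.15 with pandas 2.3.3 and scipy 1.17.1. Alternatives were other pseudocounts, filters, scalings, limma-voom on recovered reads, a replicate block, no fold limit and leaving out each library. Counts of the gene lists and the saline order of levels without saline 1, and gaps between libraries on the FPKM scale, were added after the data were seen.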

Additional observations from a re-analysis of the deposited data

Results flagged for a closer look

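In groups of 4 or 6 libraries, the gap of the highest or lowest library to its neighbour on the log2(FPKM + 1) scale was set against the range of the group, for 16 groups of values (8 members, saline and LPS). Chance alone marks about 1 in 20 groups. Saline 1 stood out for Nos3, at 31.3 FPKM, where saline 2 to 4 held 11.1 to 12.5 FPKM. It stood out for Gch1 too, at 6.48 FPKM against 3.19 to 3.53 FPKM. On the FPKM scale itself the gap was 0.928 of the range for Nos3 and 0.896 for Gch1, and saline 1 stood out for Acod1 as well (0.947), at 19.0 FPKM against 0.103 to 1.11 FPKM. Without this library the log2 fold change in LPS was 0.23 for Nos3, 1.75 for Gch1 and 6.33 for Acod1.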

How the results depend on the processing

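With LPS the calls of 4 members higher held under every alternative run, and in the second experiment 0 genes were called under each of them. Over all genes the main counts of 1768 higher and 1011 lower became 4399 and 3529 with no fold limit. They were 2331 higher and 1840 lower with a pseudocount of 0.1 FPKM, and 2355 and 2008 with limma-voom on recovered reads. With scaling on total FPKM, which moves the median of all genes to -0.25, lower calls outnumbered higher ones, 1838 to 1185. When libraries were scaled on endothelial markers, 4922 genes were higher and 168 lower. Quantile normalization added 1 member called lower, Ddah2, with 1326 of all 14893 genes tested called lower. With no fold limit and with endothelial scaling, 6 members were higher, Nos2 and Ddah1 being added. Over all genes tested, 29.5% were higher with no fold limit and 4922 of 14893 with endothelial scaling, against 11.9% in the main fit. The cause of these shifts was not tested, except that a fold limit removes calls by its construction. In the first experiment the replicate numbers did not pair the libraries (same-number r -0.209 to 0.097, others -0.156 to 0.289), and with a replicate block 1925 genes were higher and 1063 lower, with 4 members higher. In the second the block changed no call. Signs turned only for members that were not called. With LPS, Nos3 was 0.669 and Ddah2 0.336 on the log2 scale under endothelial scaling, and Nos3 ranged from -0.252 to 0.227 with 1 library left out. Between the genotypes, quantile normalization gave -0.02 for Nos3 and -0.001 for Ddah2, and endothelial scaling -0.282 and -0.257, beside a median of all genes of -0.22. With 1 library left out, Nos3 ranged from -0.148 to 0.179, Ddah1 from 0.189 to 0.523, Ass1 from -0.37 to -0.092, Ddah2 from -0.118 to 0.332, Nos2 from -0.433 to 0.214 and Slc7a2 from -0.445 to 0.444. At 6 reads in 2 of the saline libraries, the saline level of Acod1 is limited by depth.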

Other observations

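The deposited tables also allow the LPS groups of both experiments to be set side by side, without a test, since dose, genotype and scaling differ. After 10 mg/kg LPS in WT mice and 2 mg/kg LPS in Fgfr1loxp/loxp mice the mean level was 121.7 and 89.6 FPKM for Acod1, and 43.1 and 31.6 FPKM for Ass1. It was 6.60 and 8.42 FPKM for Nos2, 5.17 and 9.04 FPKM for Slc7a2 (where Fgfr1loxp/loxp 3 held 17.6 FPKM and the others 4.42 and 5.13 FPKM), 13.6 and 9.25 FPKM for Gch1, 14.7 and 35.4 FPKM for Nos3, 29.0 and 42.7 FPKM for Ddah1, and 90.0 and 83.5 FPKM for Ddah2. Nos3 was read at 27.7 FPKM or more in all Fgfr1loxp/loxp libraries. In all LPS libraries of the first experiment it was at 21.8 FPKM or less, while saline 1 of that experiment held 31.3 FPKM. Gch1 lay apart the other way, at 10.6 FPKM or less in all Fgfr1loxp/loxp libraries and 11.0 FPKM or more in those LPS libraries. How many of all genes lie apart between the experiments was not counted. Erythroid genes, which the isolation of ECs should remove, summed to 6.12 to 25.3 FPKM in saline, 20.8 to 73.8 FPKM in LPS at 10 mg/kg and 99.9 to 407 FPKM in the second experiment.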
